A study of Homo sapiens with 6 samples.

Results

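The members described here are the pseudogene transcripts of RPMI 8226 cells, an established human multiple myeloma line. They were chosen by annotation alone: every listed transcript whose GENCODE 29 transcript type contains the word pseudogene, without immunoglobulin types, histone symbols and the chromosomes M and Y. Of 173259 transcripts in the tables, 159239 had an entry in GENCODE 29, and 13704 were members. By type, 9984 were processed, 2287 unprocessed, 1251 transcribed (a label for pseudogenes with their own evidence of transcription) and 182 of other types. A locus can hold transcripts of other types as well, so a second view below sums every transcript of each locus.

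A pseudogene is a copy of a gene that has lost the ability to make the full protein. Processed pseudogenes arose when a messenger RNA was reverse transcribed and inserted elsewhere, so they usually lack introns, and abundant messages such as those of ribosomal proteins left many copies. Unprocessed pseudogenes arose by duplication of a stretch of genome, and unitary ones by loss of function of a gene with no working copy. Stretches of mitochondrial DNA have also been copied into the chromosomes and are annotated as pseudogenes. Because a copy can be almost identical to its parent gene, a short read may match both.

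The study compared cells carrying a short hairpin RNA against luciferase (shLuc, the control, a gene that human cells lack) with cells carrying one against HDAC1 (shHDAC1), a class I histone deacetylase that removes acetyl groups from histone tails. Hairpins had been delivered by lentivirus, both groups had 48 h of puromycin in medium with 10% serum, and each group had 3 libraries from transductions described as triplicate. Values were in TPM, a unit that scales for transcript length and for the library total. TPM keeps no depth, so the depth is unknown. HDAC1 stood at 89.98, 85.0 and 88.9 TPM with shLuc and at 31.8, 27.0 and 29.2 TPM with shHDAC1. All 7 plasma cell markers examined were at 1 TPM or more in every library, and 6 of them (TNFRSF17, CD38, IRF4, SDC1, XBP1 and JCHAIN) had lower values in all shHDAC1 libraries than in any control. Of 8 markers of other cell types, 6 were under 1 TPM in every library, with CD3D and ALB listed at 0 throughout, COL1A1 reached 2.17 TPM, and EPCAM stood at 70.8 to 90.8 TPM in both groups.

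Examples of the sequences show how close the copies are to coding genes, which bears on every value below. Each window is the 60-base stretch inside the coding sequence with the most differences, written 5′ to 3′ with the differing bases in capitals (GENCODE 29 transcripts, GRCh38). The first group holds copies that are close to identical: RPL9P9 at chr15:82372523-82372582 on the minus strand, MTND1P23 at chr1:629215-629274 on the plus strand, EIF4EP2 at chr17:49424863-49424922 on the minus strand and AC112777.1 at chr12:20551968-20552027 on the plus strand.
RPL9P9: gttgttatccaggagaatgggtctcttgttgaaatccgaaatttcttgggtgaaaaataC
RPL9: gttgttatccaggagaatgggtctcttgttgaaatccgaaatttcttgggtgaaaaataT
MTND1P23: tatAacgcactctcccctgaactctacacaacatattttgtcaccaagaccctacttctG
MT-ND1: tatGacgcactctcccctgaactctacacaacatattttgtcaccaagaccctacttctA
EIF4EP2: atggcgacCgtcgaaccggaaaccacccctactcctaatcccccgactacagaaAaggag
EIF4E: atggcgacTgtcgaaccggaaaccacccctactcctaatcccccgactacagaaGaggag
AC112777.1: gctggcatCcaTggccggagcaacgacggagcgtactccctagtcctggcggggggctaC
UHRF1: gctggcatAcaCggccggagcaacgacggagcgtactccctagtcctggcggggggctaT

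RPL9P9 differed from the message of the ribosomal protein RPL9 at 1 base of 579 aligned. MTND1P23 differed from the mitochondrial gene MT-ND1, a subunit of respiratory complex I, at 3 of 352 bases. EIF4EP2 differed from EIF4E, which binds the cap of messenger RNAs, at 4 of 654 bases. AC112777.1 differed from UHRF1, a factor that maintains DNA methylation, at 8 of 1423 bases. The next group holds copies that have drifted further or that moved apart from their parent: GAPDHP35 at chr16:28239821-28239880 on the minus strand and SLC7A5P1 at chr16:29613556-29613615 on the minus strand.
GAPDHP35: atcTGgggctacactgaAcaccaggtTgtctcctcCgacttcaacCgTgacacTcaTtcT
GAPDH: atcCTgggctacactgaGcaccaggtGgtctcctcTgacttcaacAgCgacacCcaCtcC
SLC7A5P1: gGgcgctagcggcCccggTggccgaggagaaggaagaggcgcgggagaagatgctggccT
SLC7A5: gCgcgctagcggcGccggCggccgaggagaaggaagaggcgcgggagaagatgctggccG

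GAPDHP35 was 89.8% identical to the glycolytic gene GAPDH over 996 aligned bases. KRT8P12, with no window shown, was 86.1% identical to KRT8, a keratin of simple epithelia, over 1461. SLC7A5P1 was 96.6% identical to SLC7A5, a transporter of large amino acids, over 537.

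Pseudogene transcripts held a small share of each library. In the controls they took 0.524% ± 0.011 of all TPM, and in the shHDAC1 libraries 0.573% ± 0.040 (SD, n = 3). Their sums were 5141, 5356 and 5221 TPM in the control libraries and 6186, 5561 and 5434 TPM with shHDAC1. The groups did not overlap, and the exact two-sided permutation test gave p = 0.1, the smallest that 3 against 3 libraries allow. Without the nuclear copies of mitochondrial genes the groups overlapped. Those sums were 4327, 4594 and 4484 TPM with shLuc and 4748, 4556 and 4390 TPM with shHDAC1 (exact permutation p = 0.5). Most members had low or no listed values: 9227 were listed at 0 in every library, 989 were above 0 in all 6, and 432 to 453 in the control libraries and 455 to 501 in the shHDAC1 libraries reached 1 TPM. A listed 0 is not shown to be absence of RNA, since depth and the assignment of shared reads are unknown.

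By class, processed pseudogenes summed to 2497 ± 94.1 TPM with shLuc and 2500 ± 74.3 TPM with shHDAC1 (SD, n = 3; exact permutation p = 1.0). Unprocessed pseudogenes summed to 1321, 1468 and 1393 TPM with shLuc and to 2391, 1849 and 1556 TPM with shHDAC1, so that every shHDAC1 library was above every control (exact permutation p = 0.1). Transcribed pseudogenes summed to 1327 ± 64.6 and 1277 ± 117 TPM (SD, n = 3; exact permutation p = 0.7). Summed over loci by gene type rather than over transcripts, the difference of the transcribed class was 116.7 TPM higher with shHDAC1 in place of 49.7 TPM lower.

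The higher sum of the unprocessed class lay mostly in few transcripts. Without MTATP6P1, AL356432.3 and MTND1P23, it summed to 339 ± 2.44 TPM with shLuc and 391 ± 29.7 TPM with shHDAC1 (SD, n = 3; exact permutation p = 0.1). Without the nuclear copies of mitochondrial genes it summed to 646 ± 103 and 800 ± 233 TPM (exact permutation p = 0.3). The 381 copies of mitochondrial genes in all classes summed to 814, 762 and 737 TPM with shLuc and to 1438, 1005 and 1044 TPM with shHDAC1. The 13 transcripts of the mitochondrial genome itself moved beside them, from 15859 ± 776 to 22794 ± 5070 TPM (SD, n = 3), and their part in the copies' values was not tested.

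**Figure D1:**
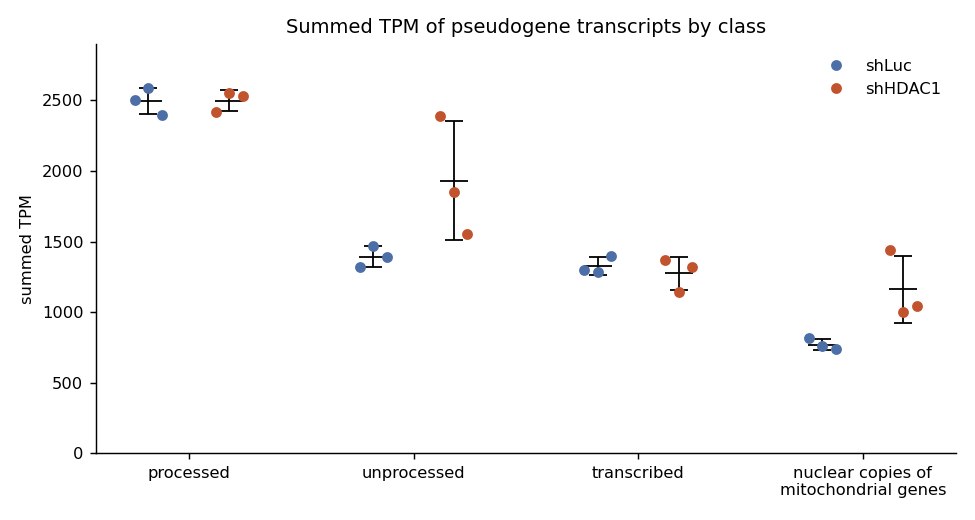
Summed TPM of pseudogene transcripts (y axis, from 0) by class and hairpin, with points for the 3 libraries of each group and bars for the mean ± SD. The processed sums lie between 2400 and 2588 TPM in both groups, while the unprocessed sums and the mitochondrial copies, which overlap as sets, are higher in all 3 shHDAC1 libraries.

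A few members held most of the signal. The 5 most abundant took 45.7% of all member TPM and the 12 most abundant 55.5%. MTATP6P1, a nuclear copy of the ATP synthase gene MT-ATP6 on chromosome 1, was first, at 603, 538 and 535 TPM with shLuc and 1071, 677 and 744 TPM with shHDAC1. Second was RPL9P9, at 617, 574 and 739 TPM with shLuc and 556, 456 and 556 TPM with shHDAC1. The third, AL356432.3, a chromosome 6 copy 86.4% identical to the transcription cofactor gene TBL1XR1, stood at 246, 454 and 399 TPM with shLuc and at 671, 585 and 220 TPM with shHDAC1. Its shHDAC1 values included both the highest and the lowest of the 6 libraries.

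HMGB1P6, a copy of the chromatin protein gene HMGB1 lying in an intron of THSD4 on the opposite strand, stood at 412 ± 23.998 TPM with shLuc and 413 ± 12.9 TPM with shHDAC1 (SD, n = 3). RPL10P9, a copy of the ribosomal protein gene RPL10, stood at 374 ± 18.0 and 395 ± 10.8 TPM. MTND1P23 followed, and then NBEAP1, a partial copy of the neurobeachin gene NBEA, at 69.4 ± 5.48 and 86.4 ± 7.13 TPM. NBEA itself was under 1 TPM in every library (means of 0.523 and 0.568 TPM).

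GCSHP5, a copy of the glycine cleavage gene GCSH in an intron of DCAF6, stood at 89.4, 80.1 and 72.7 TPM with shLuc and at 54.8, 66.6 and 57.0 TPM with shHDAC1. MTND2P28 stood at 54.4 ± 5.79 and 78.5 ± 16.2 TPM, EEF1A1P5, a copy of the elongation factor gene EEF1A1, at 57.9 ± 4.89 and 58.5 ± 3.68 TPM, and DUXAP8 at 44.2 ± 8.57 and 53.4 ± 4.07 TPM (SD, n = 3). RRP7BP, close to the ribosome biogenesis gene RRP7A, stood at 45.3 ± 3.68 and 40.1 ± 3.64 TPM. In the fit over genes given below, GCSHP5 was called lower (limma adjusted p = 0.0123) and NBEAP1 higher (limma adjusted p = 0.0470). MTATP6P1, MTND2P28 and RPL9P9 were called there as well. With each library left out, GCSHP5 was called in 6 of 6 such fits and NBEAP1 in 1 of 6. GCSHP5 is 99.8% identical to GCSH. Among these 12 members, none but MTND1P23 passed the test across all transcripts.

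That test was limma on log2(TPM + 1), over every transcript that reached 1 TPM in 3 or more libraries, called at a Benjamini-Hochberg adjusted p below 0.05. Only 455 members passed the filter (285 processed, 57 unprocessed, 109 transcribed and 4 others), of which 4 passed through the shHDAC1 libraries alone and 3 through the controls alone. Of the 455, 2 were called higher with shHDAC1 and 0 lower. Over all 39716 transcripts tested, 1.83% were called higher and 1.51% lower. At an unadjusted limma p under 0.05, 28 members were higher and 16 lower. No share over all transcripts is given for that threshold, so these 2 counts support no reading of the members. The values of the groups did not overlap for 56 higher and 38 lower members (12.3% and 8.35%), beside 14.6% and 11.0% of all transcripts tested. The median log2 fold change of the members was 0.04, and that of all transcripts 0.03.

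The members called were MTND1P23 and KRT8P12. MTND1P23 stood at 132, 136 and 123 TPM with shLuc and at 228, 224 and 204 TPM with shHDAC1. Its log2 fold change was 0.74 ± 0.07 (SE; limma adjusted p = 0.00816), and without shLuc replicate 1 the adjusted p was 0.0536. The KRT8P12 pseudogene transcript stood at 7.71, 7.47 and 7.45 TPM with shLuc and at 14.8, 12.7 and 14.3 TPM with shHDAC1. Its log2 fold change was 0.80 ± 0.11 (SE; limma adjusted p = 0.0210), and leaving out any library raised the adjusted p to between 0.0567 and 0.0937.

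Summing the transcripts of each gene gave a second fit over 11857 genes, in which the parent genes were tested on the same footing. For a locus with 1 listed transcript the values are the same as before, but the adjustment runs over fewer features. It tested 629 pseudogene loci, of which 47 were called higher and 19 lower. The share of all genes called was 16.9% higher and 10.3% lower, above the 7.47% and 3.02% of pseudogene loci. The balance of directions depended on scaling: with each library centred on its median, 24 loci were called higher and 36 lower. Without shLuc replicate 1, 25 were called higher and 11 lower, without shLuc replicate 2, 31 and 12, and without shHDAC1 replicate 3, 28 and 17.

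By gene type, 32 of 283 transcribed loci were called higher and 11 lower, 7 of 57 unprocessed loci higher and 0 lower, and 7 of 285 processed loci higher and 8 lower. For 219 loci, most of the signal came from transcripts that are not themselves typed as pseudogene, and 26 of these were called higher and 8 lower. For the other 410, 21 were called higher and 11 lower. Of all loci tested, 5 passed the filter through the shHDAC1 libraries alone, with 4 called higher, and 4 through the controls alone, with 2 called lower.

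**Figure D2:**
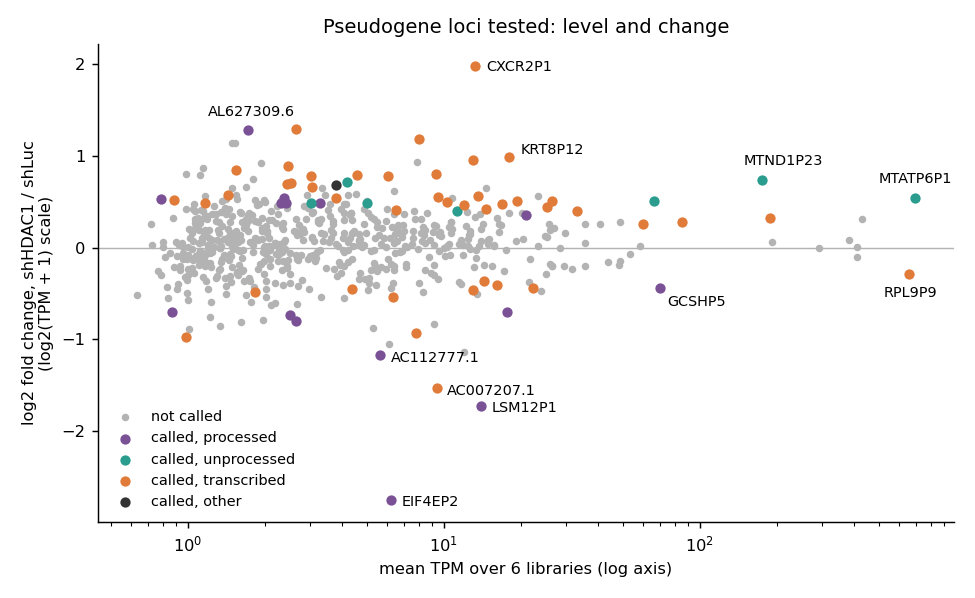
Each point is 1 of the 629 pseudogene loci tested, with its mean TPM over 6 libraries on a log x axis and its log2 fold change, shHDAC1 over shLuc on the log2(TPM + 1) scale, on the y axis. Colours mark the class of the 66 called loci, of which CXCR2P1 rose the most and EIF4EP2 fell the most.

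Among the loci that rose, CXCR2P1 changed the most. This copy of the chemokine receptor gene CXCR2 (chr2:218059155-218065729, GRCh38) stood at 4.69, 4.96 and 4.67 TPM with shLuc and at 23.4, 21.3 and 20.8 TPM with shHDAC1. Its log2 fold change was 1.98 ± 0.10 (SE; limma adjusted p = 2.41e-06). All of that signal came from a transcript typed as processed transcript, and the parent CXCR2 was under 1 TPM in every library. KRT8P12 rose from 11.7, 12.3 and 11.3 to 24.7, 23.6 and 24.6 TPM as a locus (log2 fold change 0.98 ± 0.09 SE, limma adjusted p = 9.09e-05). KRT8 stood at 20.6, 31.2 and 24.2 TPM and at 19.97, 22.3 and 22.2 TPM, and was not called (limma adjusted p = 0.302). The KRT8P12 locus stood between 39.5% and 56.9% of the KRT8 level in the controls and between 106% and 124% with shHDAC1.

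LINC02210, typed as a transcribed unitary pseudogene, rose from 8.56 ± 1.53 to 17.4 ± 1.17 TPM, none of it from a pseudogene-typed transcript. AC044860.1 rose from 4.601 ± 1.73 to 11.5 ± 1.62 TPM, AP001992.1 from 1.11 ± 0.105 to 4.18 ± 0.452 TPM, and AP005264.5 from 6.56 ± 1.57 to 12.1 ± 0.760 TPM (SD, n = 3). These 3 loci are named by clone, and their signal came mainly from transcripts of other types. AL627309.6, a processed pseudogene on chromosome 1, rose from 0.529, 1.39 and 0 TPM to 2.14, 2.55 and 3.69 TPM. It reached 1 TPM in every shHDAC1 library but not in every control. Only 7.4% of its 31-base words (stretches of 31 bases) occur in no other gene. Its call held in 13 of the 14 alternatives that could be run (highest limma adjusted p = 0.0758).

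The unprocessed loci called higher included 3 of the 7 tested copies of mitochondrial genes. MTND1P23, MTND2P28 and MTATP6P1 lie within the stretch chr1:629062-634376 and are 98.4% to 99.1% identical to MT-ND1, MT-ND2 and MT-ATP6. MTATP6P1 rose with a log2 fold change of 0.54 ± 0.15 (SE; limma adjusted p = 0.0232), and MT-ATP6 by 0.54 ± 0.14 (limma adjusted p = 0.0214). As a share of MT-ATP6, MTATP6P1 stood between 27.1% and 29.2% in the controls and between 27.4% and 28.3% with shHDAC1. MTND1P23 stood between 14.6% and 17.6% of MT-ND1 in the controls and at 14.6%, 23.1% and 17.9% with shHDAC1. AC138969.1, 98.0% identical to the polycystin gene PKD1, rose from 4.01 ± 0.300 to 6.01 ± 0.573 TPM. The call of MTND1P23 held with each library left out. That of MTATP6P1 was lost without shLuc replicate 2 (limma adjusted p = 0.0752) or 3 (0.0569), that of MTND2P28 without shLuc replicate 1 (0.0723), shLuc replicate 3 (0.0654) or shHDAC1 replicate 1 (0.0551), and that of AC138969.1 in 4 of 6 such fits (highest 0.0771).

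Among the loci that fell, EIF4EP2 had the largest fold change. It stood at 17.2, 4.62 and 12.2 TPM with shLuc and at 3.38, 0.00349 and 2.18e-06 TPM with shHDAC1. Its log2 fold change was -2.75 ± 0.59 (SE; limma adjusted p = 0.00847), and EIF4E fell by 0.26 ± 0.08 on the same scale (limma adjusted p = 0.0354). Only 11.9% of the 31-base words of EIF4EP2 occur in no other gene. LSM12P1 on chromosome 8, identical over its whole length to a transcript of LSM12, an RNA-binding protein, stood at 25.9, 22.8 and 15.9 TPM with shLuc and at 8.96, 8.06 and 2.27 TPM with shHDAC1. Its log2 fold change was -1.73 ± 0.38 (SE; limma adjusted p = 0.00918), and that of LSM12 was -0.85 ± 0.07 (limma adjusted p = 5.07e-05). Both loci kept their calls with each library left out, and lost them when no filter on low values was used (limma adjusted p = 0.0721 for EIF4EP2 and 0.0737 for LSM12P1).

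AC112777.1 stood at 8.51, 6.31 and 9.73 TPM with shLuc and at 3.18, 2.25 and 3.82 TPM with shHDAC1 (log2 fold change -1.17 ± 0.19 SE, limma adjusted p = 0.00221). UHRF1, its closest coding gene, fell from 35.8, 35.2 and 38.0 TPM to 20.5, 18.8 and 19.1 TPM (log2 fold change -0.87 ± 0.08 SE, limma adjusted p = 0.000123). The ratio of the copy to UHRF1 did not separate the groups (exact permutation p = 0.2). AC007207.1 fell from 14.4 ± 3.35 to 4.35 ± 1.30 TPM and AC139769.1 from 10.5 ± 0.851 to 5.02 ± 0.289 TPM (SD, n = 3). Pseudogene-typed transcripts gave 22.5% and 34.4% of their signal. The closest coding genes of the latter 2, RPL18 and ZNF254, at 80.6% and 85.0% identity, were not called (limma adjusted p = 0.901 and 0.855).

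Smaller decreases were called for TBC1D27P (7.68 ± 0.606 to 5.00 ± 0.812 TPM), SNX29P2 (2.29 ± 0.166 to 1.37 ± 0.295 TPM) and AL021407.3 (3.44 ± 1.49 to 1.59 ± 0.235 TPM). Pseudogene-typed transcripts gave 24.6% of the signal of TBC1D27P, 8.81% of that of SNX29P2 and all of that of AL021407.3. From shLuc to shHDAC1 the pseudogene-typed transcript of TBC1D27P went from a mean of 1.79 to 1.32 TPM. That of SNX29P2 stood at 0.202, 2.35e-07 and 2.19e-06 TPM with shLuc and at 1.04e-06, 0.766 and 0 TPM with shHDAC1. These groups overlapped near the floor, so the means of 0.067 and 0.255 TPM give no direction. FAM86C2P fell from 15.2 ± 0.672 to 10.8 ± 0.598 TPM, with 9.96% of its signal from pseudogene-typed transcripts. EEF2KMT, the methyltransferase gene closest to FAM86C2P, fell as well, with a log2 fold change of -0.69 ± 0.09 (SE; limma adjusted p = 0.000737). SDHAP3, a copy of the succinate dehydrogenase gene SDHA, fell from 25.9 ± 1.23 to 18.9 ± 1.99 TPM (limma adjusted p = 0.0127), and SDHA was not called (limma adjusted p = 0.0819). With a library left out, the calls of SNX29P2 and AL021407.3 were lost in most fits (highest limma adjusted p = 0.150 and 0.0975), and that of TBC1D27P without shLuc replicate 1 (0.0735).

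Parents were assigned by symbol, by removing the final P and number. For 248 members a parent was tested, with the member read in the transcript fit and the parent in the fit over genes. Of these pairs, 0 were called in the same direction, 1 had the pseudogene alone called (KRT8P12), 86 the parent alone and 161 neither. The transcript fit called 1.83% of its features higher and 1.51% lower, and the fit over genes 16.9% and 10.3%. The counts of 1 and 86 thus come from unlike tests and cannot be compared. The 248 pairs share 141 parents, so 1 parent can count more than once. In the fit over genes, 316 loci had a tested parent. Of these pairs, 11 were called in the same direction, 3 in opposite directions, 12 for the locus alone, 83 for the parent alone and 207 for neither. Without shLuc replicate 1 the pairs called in the same direction numbered 2, without shLuc replicate 2, 5, and without shHDAC1 replicate 3, 6.

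Pairs that rose together included NSUN5P2 with the RNA methyltransferase gene NSUN5, SLC25A5P1 with the ADP/ATP carrier gene SLC25A5, and GAPDHP35 with GAPDH. GAPDHP35 stood at 18.7, 18.3 and 17.8 TPM with shLuc and at 23.9, 23.1 and 23.9 TPM with shHDAC1, and GAPDH at 2397, 2285 and 2347 TPM and at 2956, 2850 and 2951 TPM. Their log2 fold changes were 0.36 ± 0.08 (SE; limma adjusted p = 0.0133) and 0.32 ± 0.05 (limma adjusted p = 0.00121). GAPDHP35 stood between 0.757% and 0.799% of GAPDH in the controls and at 0.810% in each shHDAC1 library, and 83.3% of its 31-base words occur in no other gene. The call of GAPDHP35 held with each library left out, while those of NSUN5P2 and SLC25A5P1 were lost in most such fits (highest limma adjusted p = 0.102 and 0.0966).

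Pairs called lower together were EIF4EP2, LSM12P1, RPL9P9, PRELID1P1, DBF4P1, PPIAP16 and AZGP1P1 with their parents. PRELID1P1 went down from 18.5 ± 1.73 to 13.7 ± 0.950 TPM, and its log2 fold change was -0.41 beside -0.39 for PRELID1, a mitochondrial lipid transfer gene. DBF4P1 had a log2 fold change of -0.70 beside -0.60 for DBF4, a regulator of replication origins, and PPIAP16 -0.79 beside -0.21 for the cyclophilin gene PPIA. AZGP1P1 stood at 1.63 ± 0.366 and 0.339 ± 0.196 TPM, and AZGP1, a secreted glycoprotein gene, fell from 215, 212 and 204 TPM to 57.2, 62.7 and 55.4 TPM. Pseudogene-typed transcripts gave 9.18% of the AZGP1P1 signal. For RPL9P9 the log2 fold change was -0.28 beside -0.27 for RPL9. AZGP1P1 and DBF4P1 passed the filter through the control libraries alone, where they were high, so that their counts among the pairs support nothing. With a control library left out they were not tested, and in the 3 fits without an shHDAC1 library AZGP1P1 was called in 3 and DBF4P1 in 1 (highest limma adjusted p = 0.0693, without shHDAC1 replicate 3). For the others, with each library left out in turn, the highest limma adjusted p was 0.0892 for PRELID1P1 (without shLuc replicate 1), 0.120 for PPIAP16 (without shLuc replicate 2) and 0.113 for RPL9P9 (without shLuc replicate 3).

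The 3 opposite pairs were DSTNP2, CFL1P1 and SLC7A5P1. DSTNP2, a copy of the actin-depolymerizing gene DSTN, stood at 1.34, 1.44 and 1.4998 TPM with shLuc and at 3.40, 3.20 and 3.89 TPM with shHDAC1, while DSTN fell from 172, 198 and 165 to 149, 155 and 131 TPM. Pseudogene-typed transcripts gave 24.6% of the DSTNP2 signal. CFL1P1, a copy of the related gene for cofilin, stood at 0.810 ± 0.190 and 2.27 ± 0.460 TPM with no signal from its pseudogene-typed transcripts. It passed the filter through the shHDAC1 libraries alone, where it was high, so that its place among the pairs supports nothing. SLC7A5P1 stood at 3.11, 1.78 and 4.08 TPM with shLuc and at 5.18, 4.96 and 5.999 TPM with shHDAC1, and SLC7A5 fell from 251, 247 and 270 TPM to 149, 130 and 142 TPM. The log2 fold changes of SLC7A5P1 and SLC7A5 were 0.72 ± 0.21 (SE; limma adjusted p = 0.0344) and -0.86 ± 0.07 (limma adjusted p = 3.84e-05). The call of SLC7A5P1 was lost in 4 of 6 fits that left out a library (highest limma adjusted p = 0.0915, without shHDAC1 replicate 3), and that of DSTNP2 in 0 of 6. CFL1P1 was tested in only 3 of the 6.

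**Figure D3:**
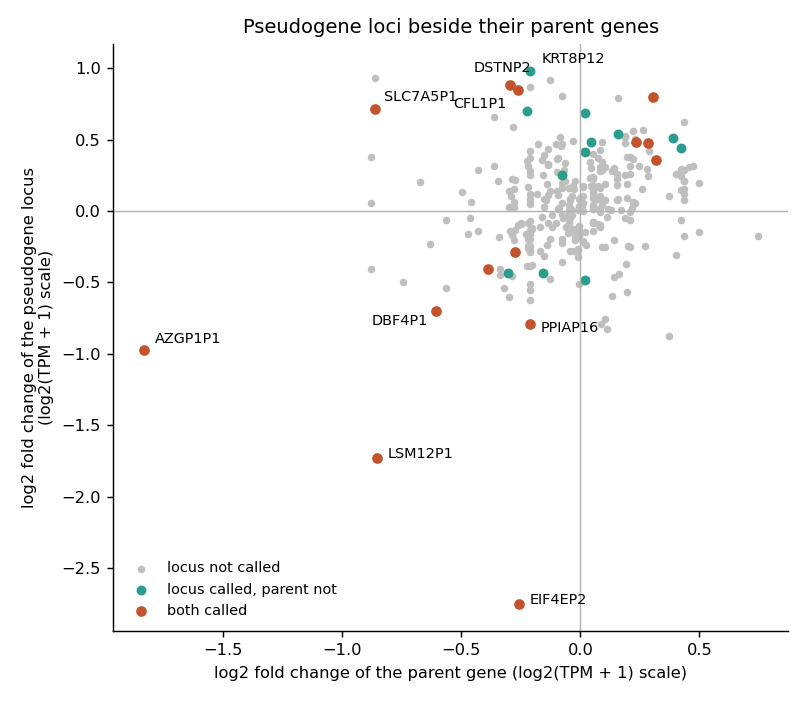
Each point is 1 of 316 pseudogene loci with a tested parent by symbol. The axes give the log2 fold changes, shHDAC1 over shLuc on the log2(TPM + 1) scale, of the parent (x) and of the locus (y), and of the 14 pairs called in both, 3 have a higher locus and a lower parent.

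**Figure D4:**
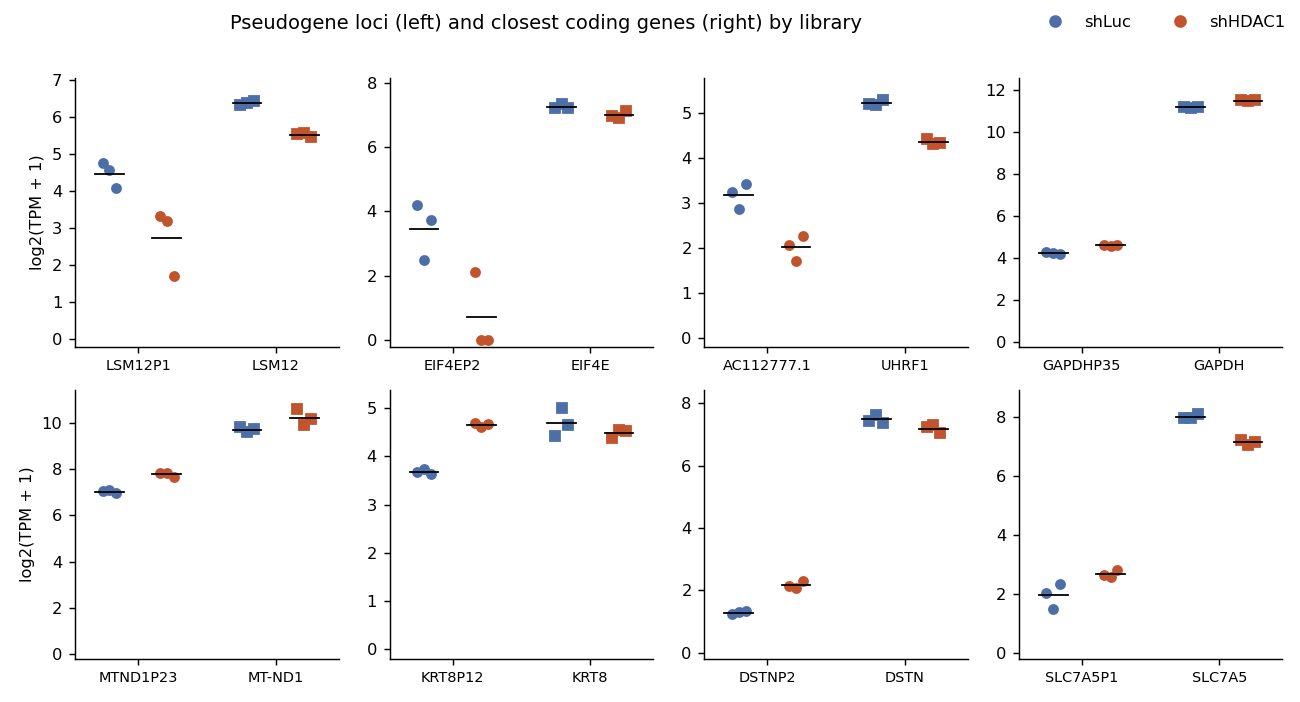
Values of 8 pseudogene loci (circles) and their closest coding genes (squares) as log2(TPM + 1) on the y axis, with points for the 3 libraries of each group and a line at the mean. LSM12P1, EIF4EP2 and AC112777.1 are lower with shHDAC1 together with their coding genes, and DSTNP2 and SLC7A5P1 are higher while theirs are lower.

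Across all pairs, Pearson's r of the log2 fold changes of pseudogene transcripts and parents was 0.15, and its sign differed between classes. It was 0.31 for 185 processed pairs, -0.46 for 18 unprocessed pairs and -0.11 for 45 transcribed pairs. Spearman's rho, which uses ranks alone, was 0.33, -0.37 and -0.02 in the same order. The 18 unprocessed pairs had 13 parents and included SLC7A5P1, at 0.72 beside -0.86 for its parent. The weight of that pair in the r of its class was not tested. These correlations describe pairs that share libraries and, in many cases, a parent (248 pairs, 141 parents), so genes are not independent replicates. Processed members stood far below their parents, at a median of 0.106% of the parent's TPM, transcribed members at 7.48% and unprocessed members at 16.5%. PMS2P5 and PMS2P1, copies of the mismatch repair gene PMS2, were the members above a parent that itself passed the filter, at means of 27.0 and 26.1 TPM beside 16.3 TPM.

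Members differed in how much of their sequence occurs in no other gene. Of 455 tested members, 442 had a similar coding transcript by blastn, 354 of them at 90% identity or more. Of 257 members with a parent by symbol, 247 had that parent as the closest match. The median share of 31-base words found in no other gene was 54.8% for processed, 29.3% for unprocessed and 46.0% for transcribed members. In 21 members no such word existed, and 12 were identical over their full length to a coding transcript, among them LSM12P1, FAM3C2, IKBKGP1 and the RPL41 copy AC090498.1. These shares are upper limits, since 14020 listed transcripts had no sequence here.

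Pseudogene and parent had the same sign of change in 24 of 32 pairs with under 10% such words, in 59 of 93 pairs with 10% to 50%, and in 66 of 123 pairs with 50% or more. Pearson's r of their log2 fold changes was 0.22, 0.24 and 0.009 in the same order. Spearman's rho was 0.082, 0.294 and 0.095, so by ranks there was no steady fall from the first group to the last. The part of shared sequence in these values was not tested.

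**Figure D5:**
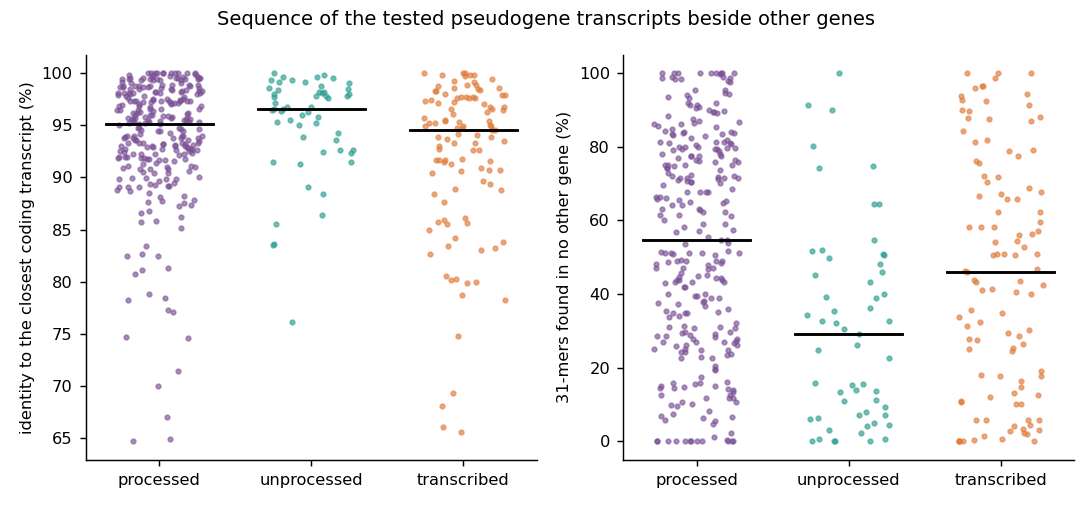
Each point is 1 tested pseudogene transcript, by class, with the median as a line. The left panel gives the percent identity to the closest coding transcript (medians of 95.1%, 96.6% and 94.5%) and the right panel the percent of 31-base words found in no other gene (medians of 54.8%, 29.3% and 46.0%).

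Members were also read by the family of the parent. Copies of ribosomal protein genes were the largest group, with 1155 members, of which 54 were tested and 0 called in the transcript fit. Of the 54, 2 were higher and 1 lower without overlap of the groups, beside 14.6% and 11.0% of all transcripts tested. As loci, 2 of 65 were called higher (RPL13P5 and RPL23AP82) and 1 lower (RPL9P9), beside 16.9% and 10.3% of all genes. Pseudogene-typed transcripts gave 19.9% of the signal of RPL13P5 and 0.969% of that of RPL23AP82, so most of it came from transcripts of other types. For RPL9P9 they gave 89.0%. Each of the 3 calls was lost in some fits that left out a library (highest limma adjusted p = 0.0807, 0.128 and 0.113). The summed level of the family was 1257 ± 51.7 TPM with shLuc and 1192 ± 24.8 TPM with shHDAC1 (SD, n = 3). Without the RPL9P9 transcript the direction turned, with sums of 614 ± 33.8 and 669 ± 51.1 TPM, and the median log2 fold change of the tested members was 0.10. Copies of translation factor genes (29 tested) summed to 190 ± 5.92 and 195 ± 9.62 TPM, and their 1 called locus was EIF4EP2.

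Copies of chaperone and folding genes (21 tested) had 1 locus called, PPIAP16, and those of RNA-binding and nucleolar proteins (16 tested) and of chromatin proteins (8 tested) had 0. Copies of cytoskeletal genes summed to 17.9 ± 2.43 and 27.4 ± 0.994 TPM, of which the KRT8P12 pseudogene transcript alone gave means of 7.54 and 13.9 TPM. As loci, 2 of 5 were called higher, KRT8P12 and CFL1P1. CFL1P1 passed the filter through the shHDAC1 libraries alone, with no signal from pseudogene-typed transcripts, so its call adds no support to this count. Among all genes, 16.9% were called higher and 10.3% lower. Of 12 copies of interferon-induced and MHC class I genes, 0 reached the filter, at sums of 1.11 ± 0.369 and 1.30 ± 0.419 TPM.

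Of 455 tested members, 325 lay outside protein-coding genes, 93 within introns and 37 overlapped exons of a coding gene, 26 of these on the same strand. Overlap with genes of other types was not examined. The sources used here do not state whether strand was used in counting, so reads of a member inside a host gene and of the host may not be told apart. For 27 members in an intron on the host's strand with a tested host, Pearson's r of the log2 fold changes of member and host was -0.13, and for 36 on the opposite strand it was 0.13.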

How the data were processed

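RNA of RPMI 8226 cells had been column-purified and treated with DNase, and libraries were made with a NEBNext Ultra kit, per the labels' protocols. The deposited tables give TPM per Ensembl transcript, normalized by the authors to a sum of 1000000 per library. STAR, DESeq and hg19 appear in the submitters' processing notes, with no role given, and the quantifier is not given in the sources used here. How reads that match several transcripts were shared is therefore not known, and near-identical copies are uncertain. Names, types and positions came from GENCODE 29 on GRCh38, by transcript identifier, with no conversion of positions.

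limma 3.58.1 in R 4.3.3 with a variance trend was fitted to log2(TPM + 1) over all features that reached 1 TPM in 3 or more libraries, with the group as the term and Benjamini-Hochberg adjustment over all features tested. A fold change on this scale understates the change of low genes. The transcript fit was the main test of the members. The fit over gene sums was the test of the parents and another way to read the members, and it was given as a second comparison, with its own alternatives, after the transcript fit's 2 calls were seen. Class sums were compared by exact two-sided permutation. Closest coding transcripts came from blastn 2.17.0 (e-value limit 1e-10), and 31-base words were compared on both strands. The transcript fit was tested on simulated data, where most changes were not recovered and false calls were somewhat above the nominal rate, so its few calls do not show that other members did not change.

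Named were the 12 most abundant members, the 10 largest called changes in each direction with a mean of at least 1 TPM and no overlap of groups, the 3 smallest p per class and direction and 2 per family and direction. The rule was extended to loci after values were seen. Loci paired with a called parent, SLC7A5P1 and NSUN5P2 among them, PMS2P1, PMS2P5 and the identical copies were chosen after their values were seen. Some items are not reported here. Members and lists were chosen with earlier results of these data known. Where the labels do not state separate cultures, p-values cover only the library-to-library spread, which may be technical. Alternatives were other scalings, filters and pseudocounts, the replicate number as a block, and each library left out.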

Additional observations from a re-analysis of the deposited data

How the results depend on the processing

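Transcripts called lower numbered 0 as reported, 2 with median centring, 1 with quantile normalization and 2 with no filter. Loci called higher numbered 47 as reported and 24 with median centring, 24 with quantile normalization and 29 at a mean of at least 5 TPM. Loci called lower numbered 19 as reported, 36 with median centring, 46 with quantile normalization and 33 with no filter. Read as loci by gene type, the 2 transcripts called higher and 0 lower became 47 and 19. The alternatives of the fit over genes were chosen after seeing the data. With each library left out in turn, transcripts called higher ranged from 0 to 2, loci called higher from 25 to 54, loci called lower from 11 to 23, and locus and parent pairs called in the same direction from 2 to 12 (11 as reported). Transcript pairs called in the same direction numbered 0 as reported and 1 with median centring.

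Same-numbered libraries did not deviate together in every pair (correlations over transcripts of -0.01, 0.17 and 0.08), so the numbers were not taken as pairing. With the replicate number as a block, 1 transcript was called higher in place of 2 (KRT8P12 had an adjusted p of 0.0925), and 41 loci were called higher and 19 lower. The difference of the unprocessed sum, 538 TPM, was 52.7 TPM without its 3 highest members, and that of the transcribed sum, -49.7 TPM, was 116.7 TPM by gene type. The cause of these moves was not tested, beyond fewer features or samples in the fit.

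HMGB1P6, not called at a log2 fold change of 0.006, changed sign to -0.067 with median centring and ranged from -0.044 to 0.030 with each library left out. EEF1A1P5, not called at 0.014, changed sign to -0.059 with median centring and ranged from -0.027 to 0.081. The 37 named loci kept their sign in all 531 refits that could be run of 555, 432 of them still called, and 11 loci were called in all 15 alternatives. These loci were chosen as called in these same data, and the values of their groups did not overlap. Most refits, such as those that left out a library, could therefore not reverse the sign, and the kept signs support nothing. For 13 loci some alternatives gave no value, because the locus fell under the filter (5 of 15 for AZGP1P1 and DBF4P1, 4 for CFL1P1 and 1 for the others). TPM holds no depth, so no counting error could be given.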
